A study of Mus musculus with 49 samples.

Results

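Among 49 single cells of the embryonic mouse kidney mesenchyme, 20 carried 3 or more of 5 transcripts of G2 and mitosis. They were compared here with 25 cells that carried 0 or 1 of them at the level used. The cells were sorted into groups by measured values. For each cell, the number of 5 cell division genes (Ccnb1, Aurka, Aurkb, Plk1 and Ube2c) at 10 RPKM or more was counted, where RPKM is the number of reads scaled to gene length and library size. The 20 cells with 3 or more of these genes are called mitotic below, the 25 cells with 0 or 1 are called non-mitotic, and the 4 cells with 2 were left out. None of the 5 genes was at 10 RPKM in 17 cells, 1 was in 8 cells, 3 were in 5 cells, 4 were in 4 cells and 5 were in 11 cells.

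RNA was sequenced from each cell on its own, so that each library holds 1 cell and no cell barcode is shared between libraries. The cells in both groups came from metanephric mesenchyme of Tg(Crym-EGFP)82Gsat mouse embryos of mixed background, at 11.5 days post coitum and Theiler stage 19, from both sexes and not pooled. The dissection under GFP fluorescence took the tissue around the ureteric bud and some cells outside the Crym domain. The names of embryos or litters are not given in the labels, so all cells count as 1 sample, cells are not replicates, and no p-value was computed. Every difference below describes these cells. The spread over cells, as a range or an SD, is printed for some of the genes and not for all.

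The proteins of mitosis are made from a set of transcripts that builds up through G2, peaks as the cell divides and is then cleared. The genes are held silent in resting and G1 cells by the DREAM complex, and are later driven by B-Myb with the MuvB core and by FOXM1. Both act through a promoter element called the cell cycle genes homology region (CHR), often found near CCAAT boxes that bind NF-Y. The mesenchyme itself holds nephron progenitors, marked by Six2, and stromal progenitors, marked by Foxd1, and both divide as the ureteric bud grows into them.

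Promoters are shown for the 3 mitosis genes with the largest differences that had an entry in the RefSeq promoter table (build GRCm38.p6). Each runs 5′ to 3′ on the strand of the gene, from 250 bases before its start to 50 bases after it. Capitals mark TTTGAA, the core of the CHR, and CCAAT, each on either strand, so that the reverse-strand matches read TTCAAA and ATTGG. Nusap1 (microtubule bundling; chr2:119618048-119618347, + strand), Kif11 (the motor that separates the spindle poles; chr19:37376132-37376431, + strand) and Top2a (the enzyme that untangles sister chromatids; chr11:99024140-99024439, - strand) read as follows.
Nusap1: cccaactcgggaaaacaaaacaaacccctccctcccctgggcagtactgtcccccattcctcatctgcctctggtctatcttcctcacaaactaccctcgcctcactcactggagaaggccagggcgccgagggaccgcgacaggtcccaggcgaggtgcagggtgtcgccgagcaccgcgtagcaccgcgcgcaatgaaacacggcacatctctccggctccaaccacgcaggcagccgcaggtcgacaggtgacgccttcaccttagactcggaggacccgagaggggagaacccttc
Kif11: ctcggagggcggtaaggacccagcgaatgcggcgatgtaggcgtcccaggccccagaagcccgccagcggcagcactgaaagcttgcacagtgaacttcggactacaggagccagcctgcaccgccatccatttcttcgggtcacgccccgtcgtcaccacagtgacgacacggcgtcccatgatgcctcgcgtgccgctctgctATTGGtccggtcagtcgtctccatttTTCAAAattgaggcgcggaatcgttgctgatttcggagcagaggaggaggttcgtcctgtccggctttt
Top2a: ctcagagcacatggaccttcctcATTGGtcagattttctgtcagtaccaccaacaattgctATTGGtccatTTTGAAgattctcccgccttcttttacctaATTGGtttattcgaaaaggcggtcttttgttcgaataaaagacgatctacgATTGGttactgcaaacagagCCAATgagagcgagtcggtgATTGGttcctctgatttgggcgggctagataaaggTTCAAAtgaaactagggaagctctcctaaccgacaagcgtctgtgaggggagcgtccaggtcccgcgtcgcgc

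In these windows Kif11 had 1 match to the CHR core, at position -19 from the start, and 1 CCAAT box, at position -45. Top2a had 2 matches to the CHR core, at -179 and -23, and 6 CCAAT boxes. The Nusap1 window held neither set of letters. Shares over all the mitosis genes are given after the expression results.

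Some libraries stood apart before any comparison. The relative number of reads, estimated from the steps between low RPKM values, was 0.0346 in cell 3 of the mitotic group and 0.0462 in cell 7 of the cells left out, where it was 0.693 to 1.35 over the 25 non-mitotic cells. In cell 25, a mitotic cell, 11 of 12 ureteric bud genes were at 1 RPKM or more, the level at which a gene is called detected here. In cell 27, a non-mitotic cell, 8 of 8 endothelial genes in the table were detected. More genes were detected in the mitotic cells, with 4126 at the lowest, 5788 at the median and 6510 at the highest, than in the non-mitotic cells, with 3610, 4696 and 6171. The 2 ranges overlapped. Median relative depth was 0.987 in the mitotic and 1.03 in the non-mitotic cells.

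The levels of the 5 selecting genes are a description of how the cells were chosen. Ccnb1, cyclin B1 of the mitotic kinase, was at 22.7 RPKM at the lowest, 389 at the median and 8013 at the highest over the mitotic cells, the highest being the shallow cell 3, and at 0, 0.346 and 92.9 over the non-mitotic cells. Ube2c, the ubiquitin-conjugating enzyme that works with the anaphase promoting complex, was at 5.49, 414 and 1277 RPKM against 0, 0.649 and 197. Plk1, a kinase of mitotic entry and spindle assembly, was at 0, 46.9 and 243 RPKM against 0, 0 and 0.53.
Aurka, the centrosome and spindle pole kinase, was at 0, 164 and 661 RPKM against 0, 0.291 and 23.1. Aurkb, the kinase of the chromosomal passenger complex, was at 0, 115 and 370 RPKM against 0, 0 and 59.5. Ccnb1 was thus at 10 RPKM or more in all 20 mitotic cells, while Aurka was so in 14.

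Each gene was also read in cells grouped by the other 4, again as a description, with the same bounds of 3 or more and 0 or 1. Ccnb1 reached 10 RPKM in 15 of 15 cells that had 3 or more of the others and in 3 of 27 that had 0 or 1. For Plk1 the counts were 15 of 19 and 0 of 25, for Aurkb 13 of 16 and 3 of 27, and for Aurka 14 of 20 and 3 of 26. Ube2c was the gene most widely found in cells that had 0 or 1 of the others, at 14 of 15 and 7 of 28. Whether the cells with 0 or 1 of the others were dividing was not tested.

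Cells just inside the bound were those with 3 of the genes (cells 3, 6, 13, 25 and 45). Aurka was below 1 RPKM in all 5 of them, at 0 RPKM in cell 3, 0.31 in cell 6, 0.557 in cell 13, 0.261 in cell 25 and 0.739 in cell 45. Plk1 reached 10 RPKM in cell 3 alone of these, at 14.2 RPKM. Just outside were the cells with 2: cells 7 and 50 had Ccnb1 (45.7 and 173 RPKM) with Ube2c (12.6 and 296 RPKM), cell 30 had Aurkb at 38.7 RPKM with Ube2c at 321 RPKM and Ccnb1 at 9.61 RPKM, and cell 38 had Aurka at 71.5 RPKM with Aurkb at 12.4 RPKM. Plk1 was below 1 RPKM in these 4 cells.

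The wider comparison took in 10021 genes, those at 1 RPKM or more in at least 5 of the 45 cells compared, without the 5 selecting genes. Differences are mitotic minus non-mitotic, in mean log2(RPKM + 1), a scale that understates the change of low genes, and a gene is called higher or lower at a difference of 2, which is 4-fold on that scale. By this rule 196 genes (1.96%) were higher in the mitotic cells and 2 (0.02%) were lower. The median difference over all genes compared was 0.22, and list medians below are to be read against it. With the number of genes detected per cell as a linear term, 157 genes were higher and 86 lower, and the median over all genes was -0.08. Without the shallow cell 3, 221 genes were higher and 2 lower, the shallow cell 7 being in neither group. Without cells 25 and 27, which carried ureteric bud and endothelial genes, 205 were higher and 5 lower.

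Mitosis genes outside the rule were read next. Their transcripts build up through G2 with those of the rule, so they cannot tell a cell in G2 from one in mitosis. The lists were chosen with earlier results of these data known. Over 8 role lists with 123 genes, 81 genes (65.9%) were higher in the mitotic cells, beside 1.96% of all genes compared. The median difference was 2.61. Of the 123, 10 were detected in no non-mitotic cell, so that they entered the comparison through the mitotic cells alone. With no filter on low values the count of higher genes in the lists was also 81. A difference above 0 was found for 120 of the 123 (97.6%), beside 65.6% of all genes compared. With the linear term for genes detected 73 were past the size. Without cell 3, 80 were past it, and without cells 25 and 27, 82 were. On a scale with a pseudocount of 10, which shrinks the differences of low genes, 23 mitosis list genes and 32 genes in all were past it. Of the 35 genes compared (0.349%) with a difference of 4 or more, 28 were in these lists.

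**Figure D1:**
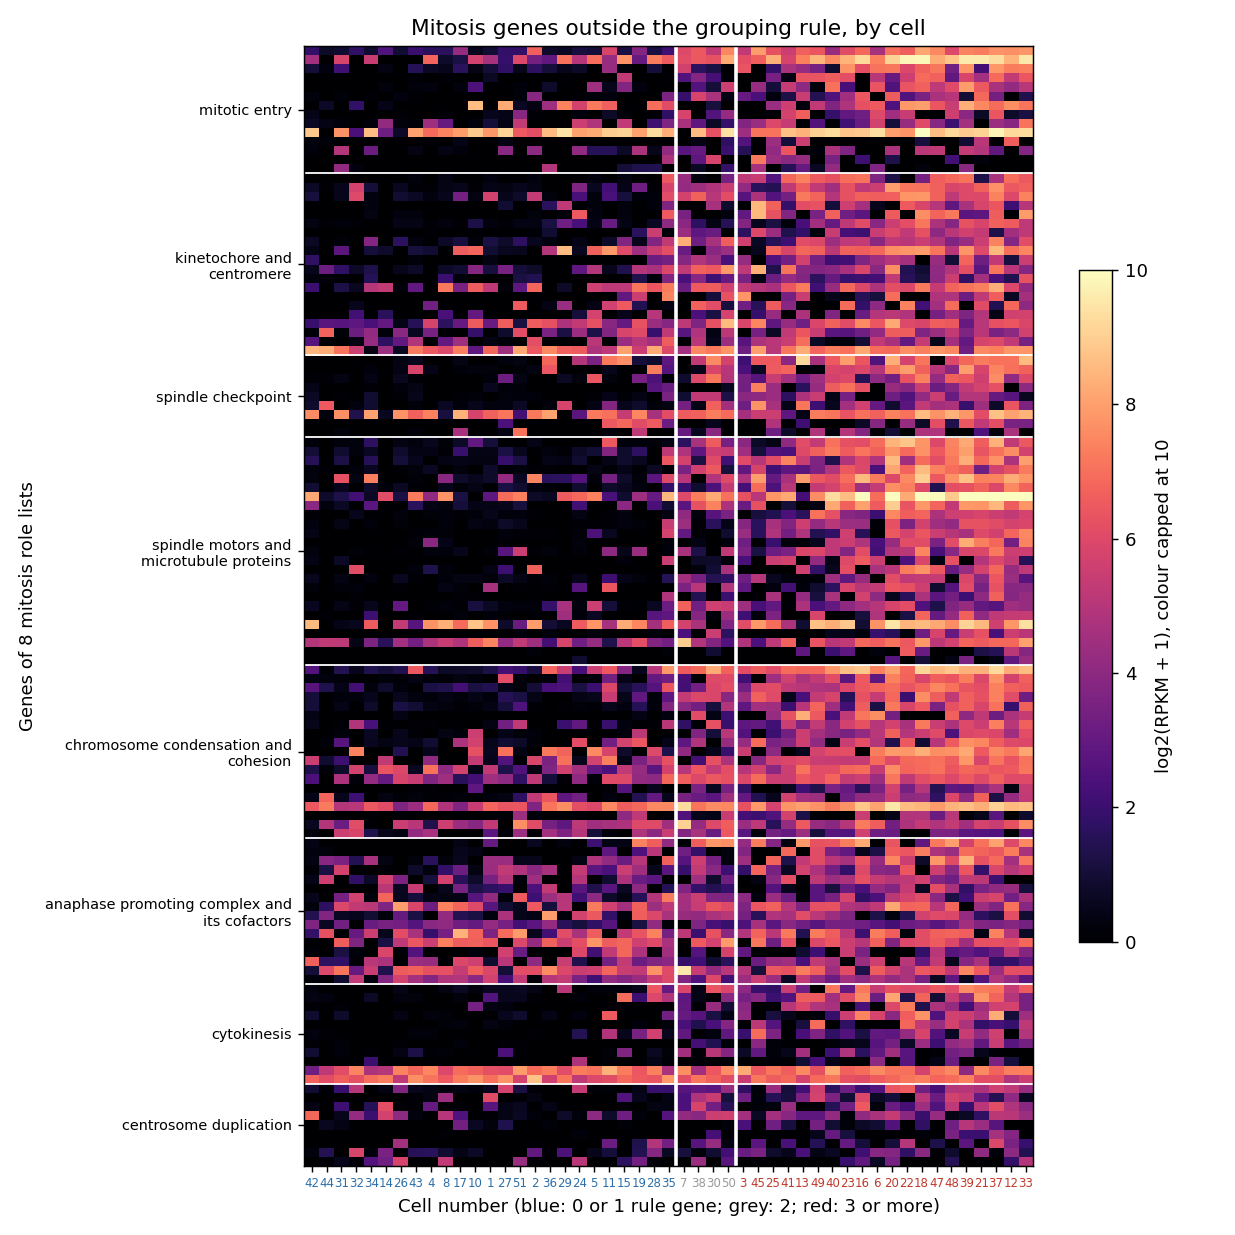
Heat map of log2(RPKM + 1) for the 123 genes of the 8 mitosis role lists (rows, sorted by difference within each list) in the 49 cells (columns, sorted within each group by the number of these genes at 10 RPKM or more). The 20 mitotic cells on the right have most rows lit, the 25 non-mitotic cells on the left have few apart from cell 35, and the 4 cells left out stand between.

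Counted cell by cell, 52 to 96 of the 123 genes (median 80.5) were at 10 RPKM or more in the mitotic cells and 14 to 57 (median 25) in the non-mitotic cells. The heat map of mitosis genes shows these as a block on the right, with an overlap made by 1 non-mitotic cell. That cell, cell 35, had 57 such genes, with Ube2c at 177 RPKM as its single selecting gene and Top2a at 232 RPKM. The mitotic cells with the fewest were cell 3 with 52, which is also the shallow library, and cell 45 with 54. The 4 cells left out had 52 to 68.

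Spindle motors and microtubule proteins made up the list with the highest median difference among the 8, with 22 of 25 genes higher and a median of 3.93. Kif20a, the kinesin of the central spindle, was at 0.346 RPKM at the lowest, 80.7 at the median and 430.0 at the highest over the mitotic cells, and at 0, 0.155 and 90.3 over the non-mitotic cells, a difference of 5.35. Its ranges overlapped at both ends: the lowest mitotic value was that of cell 25, and the highest non-mitotic value that of cell 11. Tpx2, which targets Aurora A to spindle microtubules, was at 1.13, 102 and 252 RPKM against 0, 0.485 and 36.1, a difference of 5.18. Nusap1 was at 1.64, 66.6 and 378 RPKM against 0, 0.357 and 85.3, a difference of 5.16.

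Kif11 has gene ID 16551 and spans 37450893 to 37496349 of chromosome 19 in the mm9 build used by the table. It was at 3.39 RPKM at the lowest, 58.7 at the median and 385 at the highest over the mitotic cells, and at 0, 0.11 and 0.753 over the non-mitotic cells. The groups did not overlap: it was detected in 20 of 20 mitotic cells and in 0 of 25 non-mitotic cells, a share for which 3 cells of 25 set an upper limit of 12%. Mean log2(RPKM + 1) was 5.35 ± 2.06 (SD over 20 cells) against 0.24 ± 0.23 (SD over 25 cells). Kif11 was the single gene of the 10021 compared (0.00998%) whose lowest mitotic value stood above every non-mitotic value. It passed the filter on detected cells through the mitotic cells alone, so the lack of overlap is a description only. Among the cells left out Kif11 was at 88.0 RPKM in cell 30, 49.3 in cell 38, 10.6 in cell 7 and 1.14 in cell 50.

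Further members of the list with large differences were Tacc3 (4.91) and Ckap2l (4.84), which stabilise spindle microtubules, Kpna2 (4.83), an importin that carries spindle factors, and Kif22 (4.78), a kinesin that binds chromosome arms. Kpna2 was the most abundant of these, with a median of 551 RPKM in the mitotic and 7.09 RPKM in the non-mitotic cells, and it was at 10 RPKM or more in 12 of 25 non-mitotic cells. The smallest differences in the list were those of Kifc1 (0.73) and Kif18b (1.45), a pair of kinesins that were found in 5 and 9 mitotic cells and in 0 non-mitotic cells.

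For chromosome condensation and cohesion, 16 of 19 genes were higher, with a median of 3.25. Top2a (gene ID 21973), at 98854261 to 98885503 of chromosome 11 in mm9, was at 65.7 RPKM at the lowest, 289 at the median and 604 at the highest over the mitotic cells, and at 0.0891, 1.81 and 232 over the non-mitotic cells, a difference of 5.07. Every mitotic cell was above 10 RPKM for Top2a, but so were 8 non-mitotic cells, and the ranges overlapped. Cdca8 and Birc5, which hold Aurora B at the centromere in the chromosomal passenger complex, differed by 4.49 and 4.41. Ncapg, a subunit of condensin I, differed by 4.30. The smallest differences were 0.15 for Ncapd3, a condensin II subunit with medians of 5.64 and 1.53 RPKM, and 1.04 for Anp32e, a chaperone of the histone variant H2A.Z.

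In the kinetochore and centromere list 16 of 20 genes were higher, with a median of 2.91. Ndc80, the outer kinetochore protein that grips microtubules, was at 0, 81.7 and 164 RPKM (lowest, median and highest) in the mitotic cells and at 0, 0 and 86.3 in the non-mitotic cells, a difference of 4.80. It was detected in 19 of 20 mitotic cells and in 1 of 25 non-mitotic cells, so that the ranges overlapped through 1 cell of each group. Cenpe, a kinetochore motor, differed by 4.59, and Spc25 and Nuf2, partners of Ndc80, by 4.37 and 3.77. Zwint, which links the kinetochore to the checkpoint, was abundant in both groups, at medians of 161 and 89.9 RPKM, with a difference of 0.99.

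Of the spindle checkpoint genes 6 of 9 were higher, with a median of 2.82. Mad2l1, the checkpoint protein that binds Cdc20, was at 0, 89.6 and 594 RPKM against 0, 0.229 and 202, a difference of 4.53, and the ranges overlapped. The kinases Bub1b, Bub1 and Ttk differed by 4.24, 4.17 and 3.81. Bub1 was detected in 20 of 20 mitotic and 4 of 25 non-mitotic cells. Mad1l1, the kinetochore anchor of Mad2, differed by 1.07 and Trip13, which remodels Mad2, by 1.19.

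Mitotic entry genes were higher in 8 of 14 cases, with a median of 2.51. Cdk1, the mitotic kinase itself, was at 18.6 RPKM at the lowest, 108 at the median and 281 at the highest over the mitotic cells, and at 0.501, 2.04 and 101 over the non-mitotic cells, a difference of 4.70. It was above 10 RPKM in 20 of 20 mitotic cells and in 4 of 25 non-mitotic cells. Its small subunit Cks2 differed by 4.49, with 14 of 25 non-mitotic cells at 10 RPKM or more, the phosphatase Cdc25c by 4.40 and Ccnf, cyclin F, by 4.17. Pkmyt1, a kinase that restrains Cdk1, and Mybl2, which encodes B-Myb, differed by 0.56 and 1.26.

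The cytokinesis list had 7 of 11 genes higher and a median of 2.45. Racgap1 of the central spindle was at 0, 62.2 and 193 RPKM against 0, 0.22 and 86.0, a difference of 4.40. It was detected in 19 of 20 mitotic and 3 of 25 non-mitotic cells. Ect2, the exchange factor that activates RhoA at the cleavage furrow, differed by 3.76, Anln, a furrow scaffold, by 3.42 and Depdc1a by 3.30. RhoA itself (Rhoa, 0.48) and the septin Sept7 (-0.24), which also serve the cytoskeleton outside division, had medians of 141 and 102 RPKM in the mitotic and 111 and 106 RPKM in the non-mitotic cells.

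Centrosome duplication genes were higher in 3 of 9 cases, with a median of 1.35. These were Sass6, a protein of the centriole cartwheel, at 2.39, Plk4, the kinase that starts duplication, at 2.21, and Stil, its partner, at 2.05. Cep152, a scaffold for Plk4, differed by -0.42, with detection in 6 mitotic and 8 non-mitotic cells.

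In the list of the anaphase promoting complex and its cofactors, 3 of 16 genes were higher, with a median of 0.88. The 3 were regulators of the complex and not core subunits: the inhibitor Fbxo5 (Emi1) at 4.50, and the activators Cdc20 at 3.85 and Fzr1 (Cdh1) at 3.23. Cdc20 was at 0, 25.6 and 158 RPKM in the mitotic cells and at 0, 0 and 33.4 in the non-mitotic cells. Of the core subunits Cdc23 differed by 1.72, Anapc5 by 0.04 and Cdc26 by -0.07, and Anapc5 stood at medians of 72.6 and 61.6 RPKM. The ranges of these subunits overlapped.

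Gene by gene, 27 of the 123 were detected in every mitotic cell, and 9 were at 10 RPKM or more in every mitotic cell. The 9, named after their values were seen, were Cdk1, Cks1b, Cks2, Top2a, Smc2, Smc4, Hmgb2, Rhoa and Sept7. Of these, Hmgb2 and Sept7 also reached 10 RPKM in 25 of 25 non-mitotic cells and Rhoa in 24. Cks1b did so in 21, Smc2 in 15, Cks2 in 14, Smc4 in 13, Top2a in 8 and Cdk1 in 4. A further count was of list genes found in no non-mitotic cell, of which there were 10. The shares of all genes compared that met these bounds were not counted, so nothing about the lists is read from these numbers. Outside the lists, Pbk, a kinase active in mitosis, was at 1.98, 138 and 422 RPKM against 0, 1.01 and 80.7, a difference of 5.05.

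**Figure D2:**
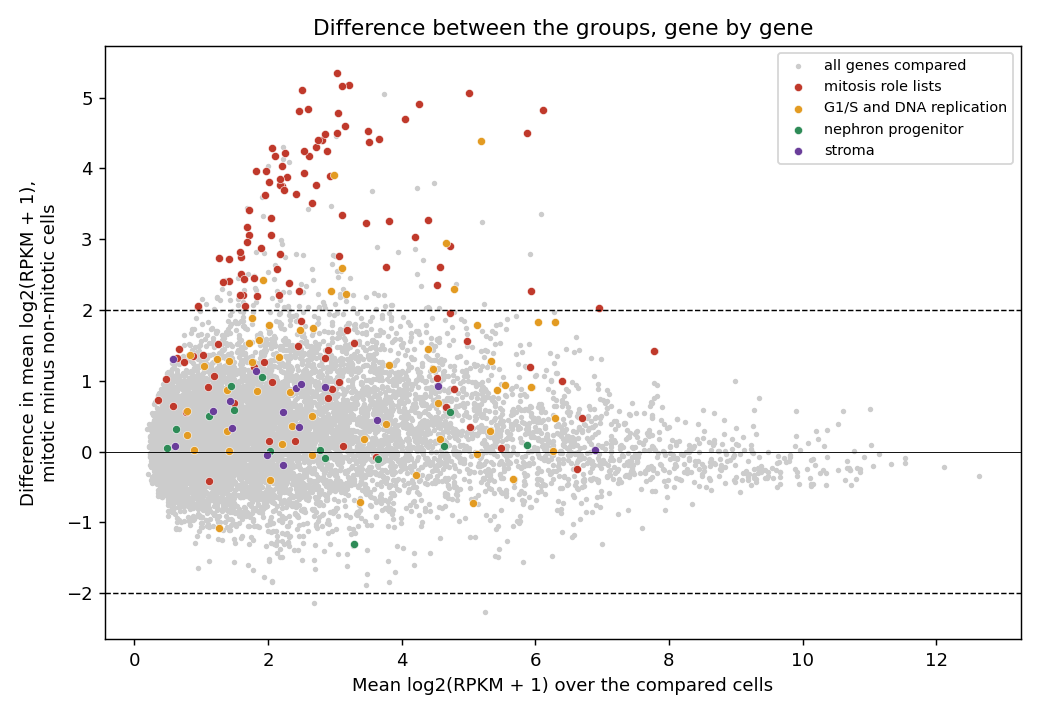
Difference in mean log2(RPKM + 1) between mitotic and non-mitotic cells (vertical axis) against the mean over the compared cells (horizontal axis) for 10021 genes, with list genes coloured and dashed lines at differences of 2 and -2. The red points of the mitosis lists fill the upper part, while the progenitor and stroma points lie between the lines.

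The 15 cells with 4 or 5 selecting genes were also set beside the 5 cells with 3. This is a description only, since the split uses the same values as the rule, and nothing is read from its direction. The spindle list was higher in the 15 by a median of 2.04, the mitotic entry list by 1.36 and the kinetochore list by 0.56, while the replication list had a median of -0.58 and all 10021 genes one of 0.32. Cdc20 was at 10 RPKM or more in 13 of the 15 and in 1 of the 5, Ccnb2, the second B-type cyclin, in 14 and 2, and Hmmr, a spindle protein, in 14 and 0. Mcm2, a subunit of the replicative helicase, went the other way with medians of 15.5 RPKM in the 15 cells and 108 RPKM in the 5. These 4 genes were named after their values were seen, and the 5 cells include the shallow cell 3 and cell 25 with its ureteric bud genes, whose part in the result was not tested. When the mitotic group was held to 4 or 5 genes, 291 genes were higher, 83 of them in the mitosis lists.

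Genes of G1/S and DNA replication, the work of the preceding phase, were higher in 8 of 56 cases (14.3%, beside 1.96% of all genes compared), with a median of 0.92. Rrm2, the ribonucleotide reductase subunit that supplies deoxynucleotides, was at 2.24 RPKM at the lowest, 207 at the median and 906 at the highest over the mitotic cells, and at 0, 3.80 and 300 over the non-mitotic cells, a difference of 4.38. The groups overlapped widely: 10 of 25 non-mitotic cells were at 10 RPKM or more. Tk1, thymidine kinase, differed by 3.90, Rfc4 of the clamp loader by 2.95 and the flap nuclease Fen1 by 2.59. The others past the size were Cdc45 (2.42), Tyms (2.30), Gins1 (2.27) and Gins4 (2.22).

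The genes Mcm2 to Mcm7, which form the helicase loaded before replication, were all short of the size. Mcm4 among them differed by less than 0.01, with medians of 113 RPKM in the mitotic and 103 RPKM in the non-mitotic cells, and Cdc6, which loads the helicase, differed by 0.01. Mcm6 (-0.72) and the uracil glycosylase Ung (-1.09), named after their values were seen, were on the lower side. With the linear term for genes detected 4 of the 56 genes were past the size.

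**Figure D3:**
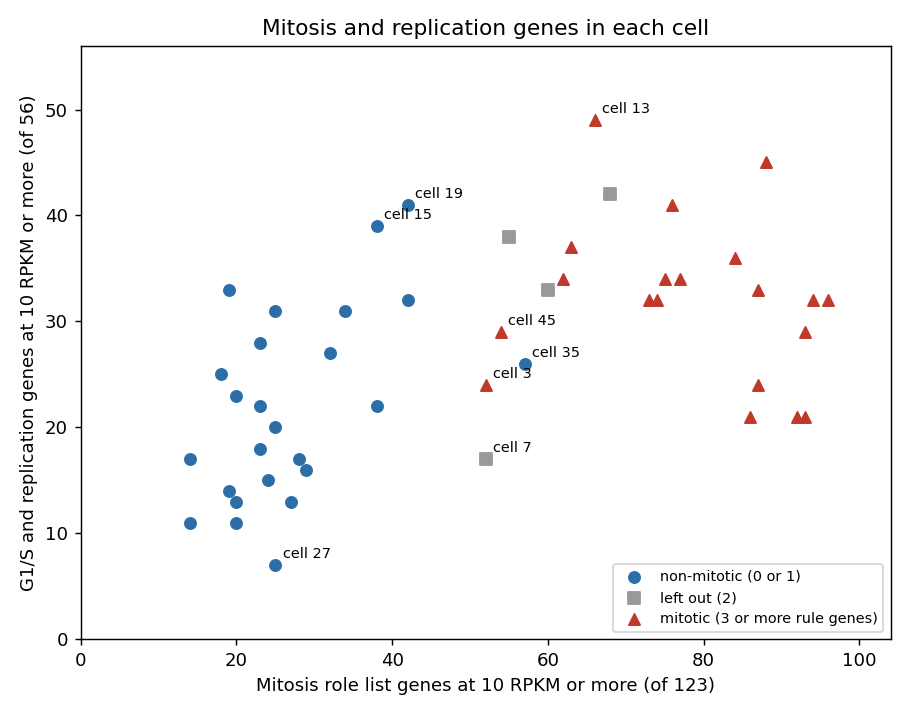
Number of mitosis role list genes (of 123, horizontal axis) and of G1/S and replication genes (of 56, vertical axis) at 10 RPKM or more in each of the 49 cells, with marker shape and colour for the group. Mitotic cells lie to the right, and on the vertical axis the groups overlap, with non-mitotic cells 15 and 19 at 39 and 41 replication genes.

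Per cell, 21 to 49 of the 56 replication genes (median 32) were at 10 RPKM or more in the mitotic cells and 7 to 41 (median 22) in the non-mitotic cells. The plot of both counts by cell shows a spread of non-mitotic cells along the replication axis. Cells 19 and 15 had 41 and 39 replication genes beside 42 and 38 mitosis genes, whereas cell 27, the cell with endothelial genes, had 7. The mitotic cell with the most was cell 13, at 49, which had 3 selecting genes and Cdc20 listed at 0. Cell 13 had 4832 genes detected, fewer than the median mitotic cell, and cell 19 had 6171, the most of any non-mitotic cell. The part of genes detected in these counts was not tested.

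Regulators of G1 and inhibitors of the cycle were higher in 1 of 21 cases (4.76%), beside 1.96% of all genes compared, and a single gene is no result about the list. The list median was 0.37. The gene was E2f5, a transcription factor of the repressive E2F class, which was detected in 20 of 20 mitotic cells and 11 of 25 non-mitotic cells and differed by 2.03. Mycn, which drives progenitor growth, differed by 1.99 and Ccng2, an atypical cyclin, by 1.95. Cdkn1c, which encodes the Cdk inhibitor p57, was at 58.5 RPKM at the lowest, 361 at the median and 886 at the highest over the mitotic cells, and at 84.8, 337 and 1101 over the non-mitotic cells. Its ranges covered each other, with a difference of 0.03. Cdk4, the G1 kinase, was likewise at medians of 793 and 941 RPKM.

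Progenitor identity was then read in both groups. Six2, the transcription factor that keeps nephron progenitors undifferentiated, was detected in 12 of 20 mitotic cells (60%, exact Clopper-Pearson 95% interval 36.1 to 80.9%) and in 14 of 25 non-mitotic cells (56%, 34.9 to 75.6%). These intervals, like those below, cover counting error only. Its level was 0, 5.37 and 77.9 RPKM (lowest, median and highest) against 0, 2.25 and 117, a difference of -0.10, and the ranges overlapped. At 10 RPKM or more the shares were 35% and 44%. Crym, which encodes mu-crystallin and drives the reporter, reached 10 RPKM in 12 of 20 and 15 of 25 cells, 60% in both.

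Over the whole nephron progenitor list 0 of 14 genes compared were past the size in either direction, with a median of 0.09 beside 0.22 for all genes. With the linear term for genes detected the sign turned, to -0.42 beside -0.08 for all genes, and with differences of medians the list stood at 0.55 beside 0.06, so its place against all genes depended on the setting. Itga8, the integrin of the mesenchyme facing the bud, differed by 1.05 and Cited1, a transcriptional coregulator of the early progenitor, by 0.92, with detection in 8 of 20 mitotic and 4 of 25 non-mitotic cells. Wt1, needed for survival of this mesenchyme, was at medians of 28.5 and 42.9 RPKM with a difference of 0.08. Sall1 (0.56), Eya1 (-0.10), Osr1 (0.02) and Gdnf (0.59), the ligand that calls the bud, also stayed under the size.

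Meox1, a homeobox gene, had the lowest value of the list at -1.31. It was detected in 10 of 20 mitotic cells (50%, 27.2 to 72.8%) and in 17 of 25 non-mitotic cells (68%, 46.5 to 85.1%), with levels of 0, 1.00 and 128 RPKM against 0, 25.4 and 410. The intervals and ranges overlapped.

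**Figure D4:**
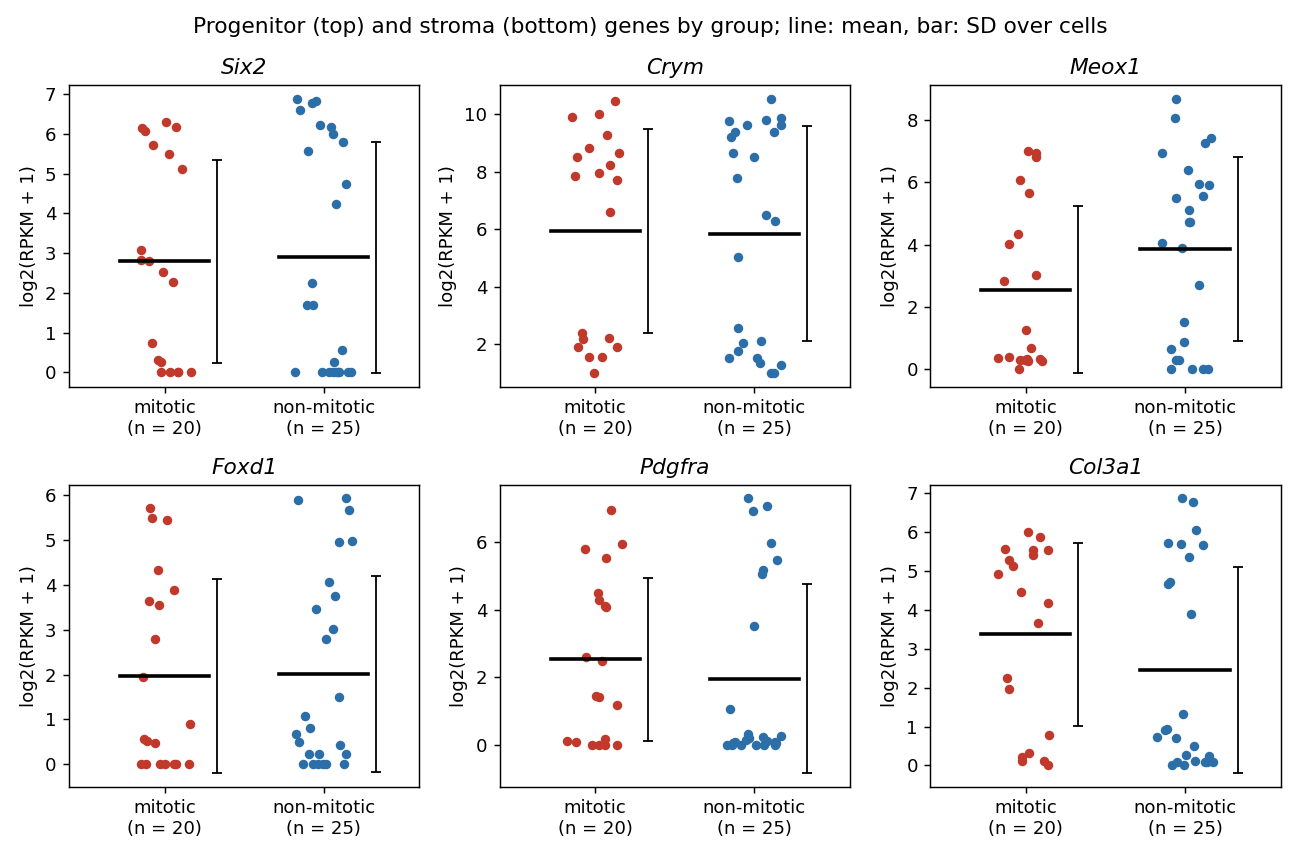
Levels of 3 progenitor genes (Six2, Crym, Meox1) and 3 stroma genes (Foxd1, Pdgfra, Col3a1) as log2(RPKM + 1), 1 point per cell, in 20 mitotic and 25 non-mitotic cells, with the mean as a line and the SD over cells as a bar. In each panel the points of both groups overlap, and both hold cells near 0 or at a low level.

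Stromal identity was read in the same way. Foxd1, the transcription factor of the cortical stroma, was detected in 9 of 20 mitotic cells (45%, 23.1 to 68.5%) and in 12 of 25 non-mitotic cells (48%, 27.8 to 68.7%). Its level was 0, 0.67 and 51.7 RPKM against 0, 0.75 and 60.1, a difference of -0.04. The stroma list had 0 of 16 genes past the size and a median of 0.57, above the 0.22 of all genes, and 0.21 with the linear term, where all genes had -0.08. It was 1.15 with a pseudocount of 0.1, beside 0.44 for all genes, and 0.11 with a pseudocount of 10, beside 0.05. Per cell, a median of 7.5 stroma genes reached 10 RPKM in the mitotic and 4 in the non-mitotic cells, with ranges of 1 to 12 and 0 to 13, while the progenitor list had a median of 6 in both.

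Several matrix and fibroblast genes of the stroma list lay on the higher side without reaching the size. Dcn, which encodes the matrix proteoglycan decorin, was detected in 5 of 20 mitotic and 0 of 25 non-mitotic cells (1.31), so that it entered the comparison through the mitotic cells alone. Lum, for lumican, was detected in 3 and 0 (0.67), in too few cells to be among the 16 genes compared. Sfrp1, a secreted Wnt modulator, differed by 1.14, Col1a2 by 0.95, Col3a1 by 0.91 and Pdgfra, the platelet-derived growth factor receptor, by 0.56. Meis1, a homeobox gene of the stroma that reached 10 RPKM in 20 of 20 and 23 of 25 cells, was at medians of 142 and 108 RPKM with a difference of 0.02. The panels of progenitor and stroma genes show that high and low cells occurred in both groups.

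Cells were also classed by Six2 and Foxd1 together, each at 1 RPKM or more. Six2 without Foxd1 was found in 8 mitotic and 10 non-mitotic cells, Foxd1 without Six2 in 5 and 8, both genes in 4 and 4, and neither in 3 and 3. The share of mitotic cells was thus 44.4% (21.5 to 69.2%) in the first class, 38.5% (13.9 to 68.4%) in the second, and 50% in each of the others, beside 44.4% of all 45 cells compared. The intervals of these shares overlapped, and the difference between progenitor and stromal cells was not tested.

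The mitosis genes were also read within classes of cells by Six2 and Foxd1, as a description. Within cells with Six2 (12 mitotic, 14 non-mitotic) 78 of 120 mitosis list genes compared were past the size, beside 3.12% of all genes there. The median was 2.53 beside 0.23 for all genes. Foxd1 was also detected in 4 mitotic and 4 non-mitotic cells of this class, the shallow cell 3 among them. Within cells with Foxd1 and no Six2 (5 and 8 cells) 63 of 91 were past the size, beside 10.9% of all genes. The median there was 2.93 beside 0.34. The 5 mitotic cells of this class include cell 25 with its ureteric bud genes, and the class was not read without it. Kif11 differed by 5.03 in the first class and by 4.60 in the second, and Tpx2 by 5.62 and 4.39. Rrm2 differed by 3.35 and 4.73. The filter of 5 detected cells was applied anew in each class, so a gene could enter through the mitotic cells alone. Kif11 did so in both classes, being detected in 0 of 25 non-mitotic cells. How many list genes entered in this way was not counted. Differences between the classes were not tested.

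Markers of other cell types were read in both groups. Of 12 ureteric bud genes all 12 were found in some mitotic cell and 3 in some non-mitotic cell, and 3 or more were found together in 2 mitotic cells, cell 25 with 11 and cell 12 with 3, and in 0 non-mitotic cells. The summed level of the list reached 877 RPKM in cell 25, with medians of 0.474 in the mitotic and 0.275 in the non-mitotic cells. Endothelial genes were found together in cell 27 alone, with a sum of 1125 RPKM. Macrophage and blood, neural and muscle genes were not found 3 together in any compared cell. As shown above, the count of higher genes was 205 without cells 25 and 27.

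Of the commonly used reference genes 0 of 12 were past the size, with differences from -0.69 to 1.20 and a median of -0.14. Among genes that respond to tissue dissociation 1 of 8 (12.5%) was past it, beside 1.96% of all genes compared. That gene was the heat shock cochaperone Dnajb1 at 2.06, with detection in 14 of 20 and 9 of 25 cells. A single gene is no result about the list, whose median was 0.43 beside 0.22 for all genes. The part of dissociation in the results was not tested.

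At the size used, 2 genes were lower in the mitotic cells, a count that depended on the setting: it was 86 with the linear term for genes detected and 69 with differences of medians. Idh3b, a subunit of the mitochondrial isocitrate dehydrogenase, was at 0, 33.1 and 214 RPKM in the mitotic cells and at 0, 145 and 489 in the non-mitotic cells, a difference of -2.27, and 15 of 20 and 23 of 25 cells had it detected. Styx, a pseudophosphatase, was at 0, 1.39 and 19.8 RPKM against 0, 15.9 and 197, a difference of -2.14. Both ranges overlapped. The next genes in order, all short of the size, were Tmem199 (-1.88), Bckdk (-1.85), Dusp18 (-1.84), Slc35c2 (-1.83), Fsd1 (-1.77), Plat (-1.73), Tomm34 (-1.70) and Ppapdc1b (-1.67). The count of 2 lower genes ranged from 1 to 5 when single cells were left out, and cells 1, 21 and 26 each moved it by more than 1.5 times.

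Promoter letters were counted over the mitosis genes with an entry in the RefSeq table. TTTGAA on either strand was found in 47 of 68 promoters (69.1%) of the mitosis genes past the size, in 11 of 35 (31.4%) of the mitosis genes short of it, in 6 of 42 (14.3%) of the replication genes, in 939 of 7923 (11.9%) of all genes compared and in 18.1% of the 27025 promoters in the table. CCAAT on either strand was found in 73.5%, 51.4%, 64.3%, 40.2% and 37.9% of the same sets. Both together were found in 55.9%, 22.9%, 11.9%, 5.15% and 7.12%.

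**Figure D5:**
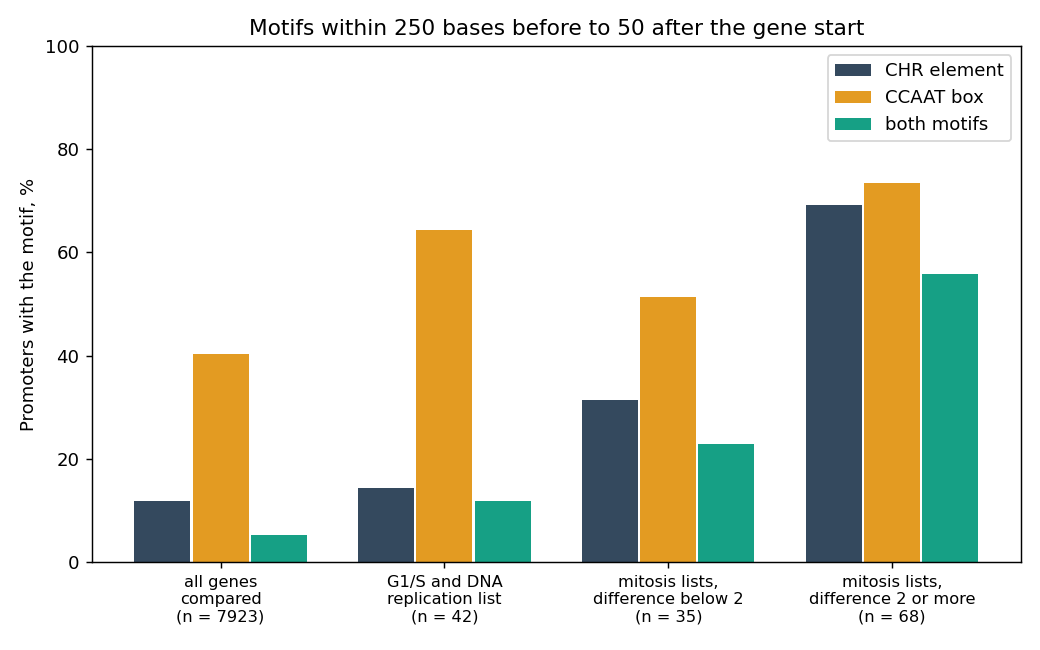
Share of promoters (vertical axis, %) that hold the CHR core, the CCAAT box or both, for all genes compared, the replication list and the mitosis lists below and at or above a difference of 2; n is the number of promoters. The CHR bar is tallest in the last set, at 69.1%, while the CCAAT bar of the replication list, at 64.3%, is near that of the last set, at 73.5%.

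In percentage points, the bars of motif shares differ most for the CHR core between all genes compared and the mitosis genes past the size. As a ratio the bars for both motifs together differ more. In a window of 50 bases on each side of the start, chosen after the values were seen, the CHR core was in 57.4% of the mitosis genes past the size, 25.7% of those short of it, 7.14% of the replication genes and 3.13% of all genes compared. A match describes letters in the window and is not a measured binding site. The Kif11 promoter and the nearer match of Top2a printed above are of this kind, whereas Nusap1, with a difference of 5.16, had none in its window.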

How the data were processed

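Single mouse cells were captured on a Fluidigm C1 chip, and cDNA was made with SMARTer chemistry and sequenced after Nextera XT library preparation, per the labels' protocols. Per the file headers, the authors deposited RPKM values. The submitters' processing notes list TopHat 1.4.1, DESeq and the build mm9 without saying what each did. The read counter and annotation were not given in the sources used here. Each of the 13093 genes in the table is above 3 RPKM in at least 1 cell. Strand and molecular identifiers were not kept. Total reads per cell are unknown, and relative depth came from the steps between values below 8 RPKM.

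No cell was filtered and no doublet caller was run. Differences are in mean log2(RPKM + 1) over genes at 1 RPKM or more in at least 5 compared cells, computed with Python 3.11.15, numpy 2.4.6, pandas 2.3.3 and scipy 1.17.1 and drawn with matplotlib 3.10.9. The size rule and the depth estimate were tested on simulated data. The groups, the 20 gene lists and the rules were chosen with earlier results of these data known. Histone genes, the narrow promoter window and the leaving out of single cells were chosen after the values were seen.

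Named genes were the 15 with the largest positive and the 10 with the largest negative difference among genes detected in at least 10 compared cells, the 5 selecting genes, up to 4 members of each role list with the largest and 2 with the smallest difference, any progenitor or stroma member, and other genes where stated. List members were matched by symbol or, for 4 mitosis genes, by gene ID, since 20 symbols had turned into dates and others are older names. The 20 list members outside the table were not analysed here. Gene coordinates are those of the table in mm9, and promoters are RefSeq sequences in GRCm38.p6, matched by gene ID. The builds were not mixed. No column of values was left unused (0 columns). Alternatives covered the rule's threshold, pseudocount, filter, summary, size, genes detected and single cells.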

Additional observations from a re-analysis of the deposited data

How the results depend on the processing

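Of 76 values recomputed under other settings 58 stayed within the tolerance and 18 moved beyond it; the cause was not tested. The tolerance was 1.5 times for a count, the exact interval for a share and, for a list median, the SD over cells (1.23 for progenitor and 1.39 for stroma genes), which is wide: progenitor medians ran from -0.42 to 0.55 and stroma medians from 0.11 to 1.15. With a pseudocount of 0.1, 760 genes were higher, 29 lower and 22 replication genes higher. With a pseudocount of 10 the counts were 32, 0 and 1, and 23 mitosis list genes were higher. Differences of medians gave 935 higher, 69 lower and 16 replication genes. With size 1 the counts were 1262, 156 and 27. The linear term for genes detected gave 86 lower and 4 replication genes, and 157 higher. Genes lower numbered 0 with selecting genes at 20 RPKM and 5 without cells 25 and 27. The Six2 share was 35% at 10 RPKM. Leaving out 1 cell at a time gave 185 to 221 higher, 1 to 5 lower, 77 to 83 mitosis and 8 to 10 replication genes, Six2 shares of 57.9 to 63.2%, Foxd1 shares of 42.1 to 47.4%, progenitor medians of -0.03 to 0.28 and stroma medians of 0.33 to 0.75. No paired analysis was possible because the groups are cells of 1 sample. Values of the shallow cell 3 are coarse.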

Other observations

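Outside the lists fixed for the comparison, 105 of the 196 genes higher in the mitotic cells stood in no list. Those named here were chosen after their values were seen. Several are genes of the centromere: Cenpq differed by 4.30, Cenpl by 3.60 and Cenpi by 3.45. Asf1b, a chaperone of histones H3 and H4, differed by 4.46, and Esco2, the acetyltransferase that sets sister chromatid cohesion, by 2.81. Rad21, the cohesin subunit that separase cleaves, was at 4.39, 70.3 and 171 RPKM (lowest, median and highest) in the mitotic cells and at 0, 2.33 and 154 in the non-mitotic cells, a difference of 2.86. Tubg1, the gamma-tubulin that nucleates microtubules, differed by 2.51.

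Histone genes of the clusters, picked by symbol after the values were seen, were higher in 5 of 25 cases, beside 1.96% of all genes compared, with a median of 0.63 beside 0.22. A difference above 0 was found for 23 of 25 (92.0%), beside 65.6% of all genes. Hist1h4d was at a median of 157 RPKM in the mitotic and 1.78 RPKM in the non-mitotic cells (3.79), and Hist1h2ae, Hist1h1b, Hist1h1e and Hist1h2ab differed by 3.42, 2.81, 2.14 and 2.14. These genes have near-identical copies, so their values are uncertain. H2afx, which encodes the variant H2A.X and lies outside the clusters, was detected in 20 of 20 mitotic and 12 of 25 non-mitotic cells, at 9.85, 54.9 and 128 RPKM against 0, 1.00 and 72.8 (3.68). Rgs5, a regulator of G protein signalling known from pericytes, was detected in 13 of 20 and 8 of 25 cells and reached 1147 RPKM in a mitotic and 534 RPKM in a non-mitotic cell, a difference in means of 2.55.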
